A study of Mus musculus with 4 samples.

Results

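Among the mesenchymal cells of mouse fracture callus, a subset carried transcripts of *Pi16*, which encodes peptidase inhibitor 16, and of *Dpp4*, which encodes the cell-surface dipeptidyl peptidase CD26. These cells, called Pi16 Dpp4 precursors here, were examined by single-cell RNA-seq in 4 libraries. They numbered 2072 of 25479 cells kept after quality filters, from 34038 barcodes. A cell was a member when it held at least 2 unique molecular identifiers (UMIs, each standing for 1 captured RNA molecule) of *Pi16* and *Dpp4* together. It also had to hold at least 1 UMI of *Pdgfra*, the PDGF receptor alpha of mesenchymal cells, and at least 2 of *Ly6a*, which encodes the stem cell antigen Sca-1. At most 1 UMI of the proliferation gene *Mki67*, at most 1 of the endothelial gene *Pecam1* and none of the leukocyte gene *Ptprc* were allowed. Members were compared with the 5822 other kept cells that held *Pdgfra* and no *Ptprc*, called other Pdgfra cells.

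All mice were wild-type C57BL/6J animals, 3 months old, with a tibial fracture. Control mice received vehicle. RA mice received serum of arthritic K/BxN mice, which transfers an antibody-driven joint inflammation as a model of rheumatoid arthritis and leaves the genes of the host unaltered. Callus was taken at 4 or 7 days post fracture (dpf), scraped from the periosteal surface, digested with collagenase and strained, so that only cells that came through these steps were seen. Each condition and time was 1 library from 1 pool of calluses. No test between conditions or times was therefore made, and the spread between mice is unknown. Intervals of shares, levels and ratios are 95% intervals that cover counting error only.

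Fibroblasts that express *Pi16* and *Dpp4* are found in the outer connective tissue layers of many organs, and are regarded as a reservoir from which more specialised fibroblasts and fat cell progenitors can arise. Genes known from such cells encode surface proteins such as CD34 and CD55, secreted proteins such as semaphorin 3C and fibulin-3, and proteins of the elastic fibre. After fracture, mesenchymal progenitors around the bone form the fibrous tissue, cartilage and bone of the callus.

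The 5 genes that mark this cell type lie on 5 chromosomes. Because *Sema3c*, *Efemp1* and *Cd55* were higher in cells with more UMIs of *Pi16* and *Dpp4*, the 250 bases before each start site are shown. They were taken from RefSeq (GRCm38.p6) at chr17:29318632-29318881 (plus strand) for *Pi16*, chr2:62412232-62412481 (minus strand) for *Dpp4*, chr5:17574566-17574815 (plus strand) for *Sema3c*, chr11:28852955-28853204 (plus strand) for *Efemp1* and chr1:130462745-130462994 (minus strand) for *Cd55*. Each reads 5′ to 3′ along its gene, and capitals mark matches on either strand to the short motifs named after them.
Pi16: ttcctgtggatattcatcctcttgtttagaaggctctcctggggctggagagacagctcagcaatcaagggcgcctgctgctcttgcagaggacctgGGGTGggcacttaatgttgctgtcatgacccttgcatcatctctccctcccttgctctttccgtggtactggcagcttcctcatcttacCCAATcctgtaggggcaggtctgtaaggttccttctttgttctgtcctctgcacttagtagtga
Dpp4: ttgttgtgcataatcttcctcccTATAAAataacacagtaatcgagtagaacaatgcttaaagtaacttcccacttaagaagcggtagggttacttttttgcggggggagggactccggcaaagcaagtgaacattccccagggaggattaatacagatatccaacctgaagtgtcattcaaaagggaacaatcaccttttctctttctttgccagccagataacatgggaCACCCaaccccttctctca
Sema3c: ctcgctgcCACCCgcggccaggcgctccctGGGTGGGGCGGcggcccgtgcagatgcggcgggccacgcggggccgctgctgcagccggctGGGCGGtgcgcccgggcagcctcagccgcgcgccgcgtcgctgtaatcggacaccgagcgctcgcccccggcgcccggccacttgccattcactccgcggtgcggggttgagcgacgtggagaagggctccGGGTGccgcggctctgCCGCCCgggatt
Efemp1: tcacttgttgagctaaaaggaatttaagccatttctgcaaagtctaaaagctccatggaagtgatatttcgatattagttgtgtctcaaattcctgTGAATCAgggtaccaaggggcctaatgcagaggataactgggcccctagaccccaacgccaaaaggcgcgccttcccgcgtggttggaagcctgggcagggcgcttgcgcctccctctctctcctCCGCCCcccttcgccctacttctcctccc
Cd55: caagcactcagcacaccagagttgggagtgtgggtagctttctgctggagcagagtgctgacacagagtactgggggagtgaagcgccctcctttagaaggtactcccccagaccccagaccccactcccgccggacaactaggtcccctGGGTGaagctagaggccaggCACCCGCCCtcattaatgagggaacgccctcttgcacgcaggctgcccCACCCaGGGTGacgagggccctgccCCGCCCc

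CACCC, letters that KLF factors can bind, stood in 4 of these 5 windows (all but that of *Efemp1*) and in 52.1% of 32536 mouse promoter windows of the same length. The GC box GGGCGG was in the windows of *Sema3c*, *Efemp1* and *Cd55* and in 33% of all. In *Cd55* 1 match of each of these motifs overlapped. The CCAAT box was found only in *Pi16* of the 5 and in 33.8% of all windows. The TATA box TATAAA was found only in *Dpp4* of the 5 and in 12.3% of all. The AP-1 motif TGANTCA was found only in *Efemp1* of the 5 and in 6.73% of all. No motif of those searched was shared by the 5 windows, and none was tested as a binding site.

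The libraries held 168210361 UMIs in control and 130168130 in RA callus at 4 dpf, and 177131833 and 182259646 at 7 dpf. The median member held 29564, 27621, 24100 and 25264 UMIs, in the order of control and RA at 4 dpf, then control and RA at 7 dpf, which all lists of 4 values below follow. Other Pdgfra cells held 32875, 32399, 24652 and 24350. Members were thus somewhat shallower than other Pdgfra cells at 4 dpf and of like depth at 7 dpf. Between 5 and 15 kept barcodes were shared by any pair of libraries, at most 0.292% of the smaller. A doublet caller marked 2, 0, 1 and 15 members.

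RNA of red cells set 1 library apart. Levels are given as CPM, the UMIs of a gene in 1000000 UMIs of the class in that library. The 5 red cell genes, led by *Hbb-bs*, summed to 1152, 4.71, 674 and 559.6 CPM in members and to 546, 6.79, 418 and 383 in other Pdgfra cells. RA callus at 4 dpf was near 0 in both classes. The part of this in the comparisons of RA and control at 4 dpf was not tested.

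Members were scarcer in RA than in control callus at 4 dpf and more frequent at 7 dpf. At 4 dpf, 266 of 860 Pdgfra cells of control callus were members, a share of 30.9% (27.85 to 34.14; exact binomial interval), against 97 of 685 in RA callus, 14.2% (11.64 to 17). At 7 dpf, 353 of 2659 Pdgfra cells of control callus were members, 13.3% (12.01 to 14.62), against 1356 of 3690 in RA callus, 36.7% (35.19 to 38.33). The RA share was thus 0.458 times the control share at the earlier time (0.359 to 0.58) and 2.77 times at the later (2.46 to 3.12). Between the times, the share at 7 dpf was 0.429 times that at 4 dpf in control callus (0.365 to 0.505) and 2.6 times in RA callus (2.11 to 3.22). Of all kept cells, members made up 4.86%, 2.36%, 4.6% and 16.5%. Pdgfra cells as a whole were 15.7%, 16.7%, 34.6% and 44.9% of kept cells, so that the denominators grew with time in both conditions.

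**Figure D1:**
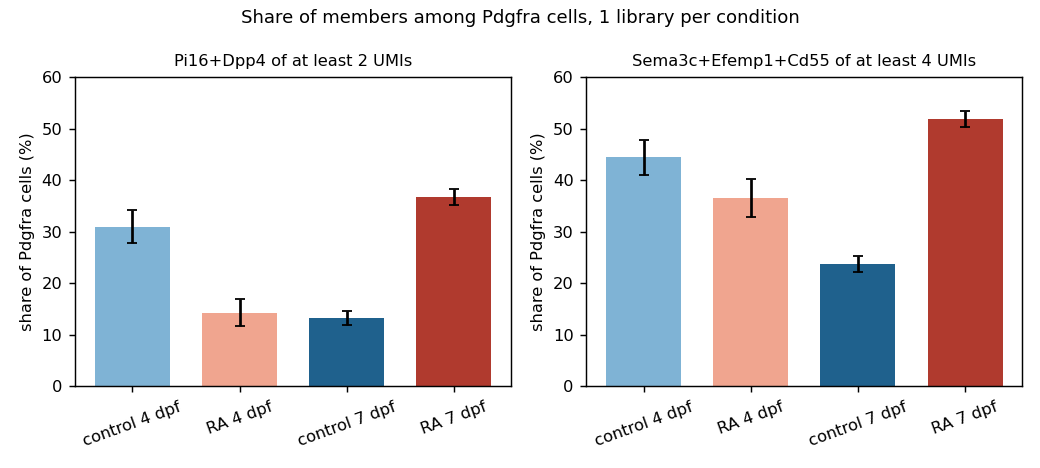
Share of members among *Pdgfra* cells (%) in each library, by the rule on *Pi16* and *Dpp4* (left) and by 3 markers that the rule does not use (right). The other limits of the rule were kept in both panels. Bars are shares and error bars exact binomial 95% intervals; by either choice RA lies below control at 4 dpf and above it at 7 dpf.

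The order of the shares was the same when genes that the rule did not use took the place of *Pi16* and *Dpp4*. The limits on *Pdgfra*, *Ptprc*, *Ly6a*, *Mki67* and *Pecam1* were kept, so the choices are not independent. With at least 4 UMIs of *Sema3c*, *Efemp1* and *Cd55* together in place of *Pi16* and *Dpp4*, a choice made after seeing the data, 44.4% of Pdgfra cells qualified in control and 36.5% in RA callus at 4 dpf. At 7 dpf 23.7% qualified in control and 51.9% in RA callus. The ratio of RA to control came to 0.822 for 4 dpf (0.698 to 0.966) and 2.19 for 7 dpf (2 to 2.4), so the gap at 4 dpf was narrower by these markers. Of the members by *Pi16* and *Dpp4*, 89.8%, 81.4%, 83% and 87.5% were also members by the 3 markers. The latter set was the broader: 62.6%, 31.6%, 46.4% and 62% of its cells were members by *Pi16* and *Dpp4*.

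Levels of *Pi16* and *Dpp4* in members follow from the rule and are a description. *Pi16* stood at 437 CPM in members of control callus at 4 dpf (422 to 452; exact Poisson interval) and at 299 in RA callus (279 to 320.2). At 7 dpf it stood at 248 in control (237 to 258) and 436 in RA callus (429 to 443). *Dpp4* stood at 133, 75.0, 76.2 and 125 CPM. Both genes were thus highest in control callus at 4 dpf and RA callus at 7 dpf, the libraries with the larger shares. Both transcripts were found in 59.8%, 48.5%, 34.8% and 55.4% of members, and the others held only 1 of them. Exactly 2 UMIs, the fewest allowed, were held by 13.5%, 23.7%, 30.6% and 16.4% of members, so the libraries with smaller shares also had more members at the edge of the rule.

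A few UMIs of these genes were found in cells that should lack them. *Pi16* was detected in 3.58% to 7.65% of cells with *Ptprc* and *Cd68*, which are leukocytes, and in 4.43% to 5.30% of cells with *Pecam1* and *Cdh5*, which are endothelial. In members it was detected in 72.8% to 83.5%. The leukocytes and endothelial cells were shallower, with medians of 11636 to 15754 and 13595 to 20333 UMIs. With every cell thinned to 4000 UMIs, the shares were 1.23% to 2.87% of leukocytes, 1.32% to 1.86% of endothelial cells and 45.3% to 51.3% of members. At least 2 UMIs of the pair were held by 2.54% to 7.70% of leukocytes, some of which express *Dpp4*, and by 0.530% to 1.37% of endothelial cells.

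The 3 markers that the rule left unused were higher in members than in other Pdgfra cells of every library. They belong to the markers of this cell type, which was chosen with earlier results of these data known. Their tests are thus a description and no independent support for the name. *Sema3c*, a secreted semaphorin, stood at 373, 148, 266 and 398 CPM in members. Other Pdgfra cells held 99.3, 31.2, 62.3 and 111. The lowest value of members was above every value of the other cells, and RA callus at 4 dpf was lowest in both classes. Over the 4 libraries *Sema3c* was higher in members by a log2 fold change of 2.12 ± 0.08 (SE; edgeR quasi-likelihood test over 8 sums with the library as a term, Benjamini-Hochberg adjusted p = 1.62e-05).

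*Cd55*, the complement decay-accelerating factor, stood at 261, 112, 179 and 227 CPM in members and at 66.5, 34.5, 26.2 and 66.3 in the others (log2 fold change 2.17 ± 0.16, edgeR adjusted p = 9.80e-05). *Efemp1*, which encodes fibulin-3, stood at 308, 269, 200.3 and 363 against 102, 126, 40.6 and 106 (log2 fold change 1.81 ± 0.16, edgeR adjusted p = 0.000243). For both genes the lowest value of members was above the highest of the others. All 3 markers were detected in 67.3%, 52.6%, 45.6% and 66.3% of members and in 23.9%, 18.7%, 8.54% and 21.7% of other Pdgfra cells. None of them was detected in 1.88%, 4.12%, 1.42% and 1.92% of members.

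**Figure D2:**
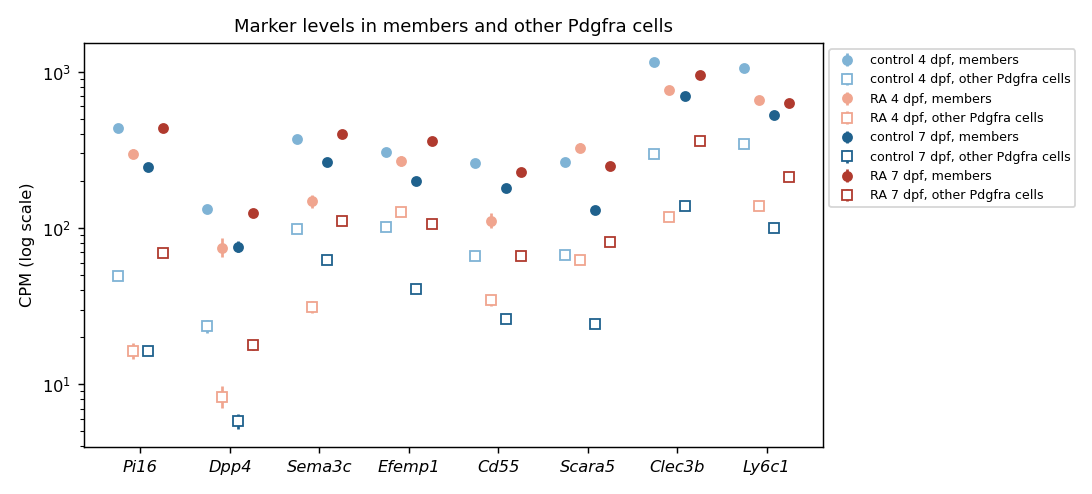
Levels of 8 genes in CPM (log scale) in members (filled circles) and other *Pdgfra* cells (open squares) of each library, with exact Poisson 95% intervals that are mostly smaller than the symbols. In each library members lie above the other cells for all 8 genes; *Pi16* and *Dpp4* were part of the rule.

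With the cells of all libraries summed, these markers followed the number of *Pi16* and *Dpp4* UMIs in a cell without a step at the threshold. Among cells that met the other limits, the 660 with 1 UMI, just outside the rule, had *Sema3c* at 112 CPM, *Efemp1* at 116, *Cd55* at 66.9 and *Clec3b* at 435. The 390 cells with 2 UMIs, just inside, had 139.7, 152, 80.1 and 497. The 813 cells with 9 or more had 559, 483, 348 and 1290, and the 2151 cells with none 56.4, 75.7, 35.8 and 222. The values just inside and just outside were close, and both lay far from the upper end.

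Other genes went the opposite way along the same axis. *Tnc*, which encodes tenascin C of the repair matrix, stood at 389 CPM in cells with none, at 248 and 223 on either side of the threshold and at 37.2 in cells with 9 or more. *Runx2*, the transcription factor of bone formation, stood at 166 in cells with none and at 51.2 in cells with 9 or more. *Acta2*, the smooth muscle actin of myofibroblasts, stood at 221 in cells with none and at 17.7 in cells with 9 or more. It did not fall at every step, with 92.5 just outside the threshold and 123 just inside. *Postn*, which encodes periostin, varied less, with 4227 in cells with none and 3472 in cells with 9 or more. A depth difference between cells with few and many UMIs of the pair was not removed here.

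**Figure D3:**
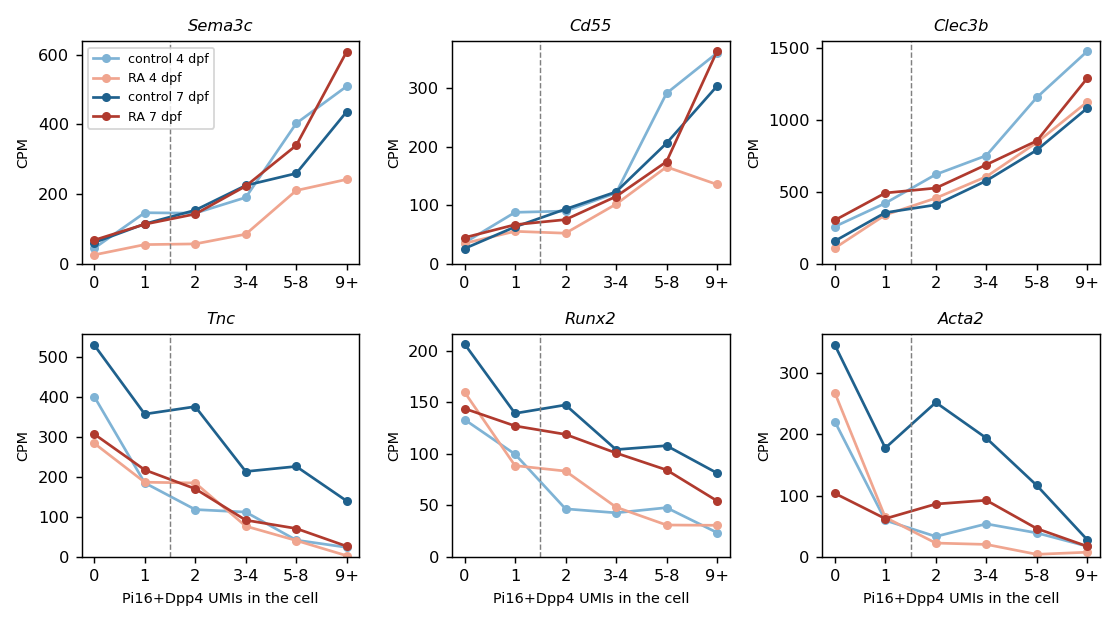
Level of 6 genes in CPM against the number of *Pi16* and *Dpp4* UMIs in the cell, for cells that met the other limits of the rule, in each of the 4 libraries. The dashed line is the threshold: *Sema3c*, *Cd55* and *Clec3b* are higher, and *Tnc*, *Runx2* and *Acta2* lower, in cells with 9 or more than in cells with none in every library.

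Beyond these markers, members and other Pdgfra cells differed in many genes. Of 16416 genes tested, 1946 were higher in members (11.9%) and 1747 lower (10.6%) at an adjusted p under 0.05 (edgeR), and 1749 and 1680 of these had the same direction in all 4 libraries. The 7 genes of the rule were left out of the test. Since cells were picked by those genes, the test shows which other genes went with them. The 4 libraries differ in condition and time, so its spread includes both. With scaling by library size alone, 1290 genes were higher and 2904 lower, and the median log2 fold change of all genes shifted by −0.11. Without control callus at 4 dpf the counts were 983 and 953, and without control callus at 7 dpf 1163 and 998.

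The genes highest in members by fold, among those of at least 50 CPM, included *Scara5* and *Clec3b*. *Scara5*, a ferritin receptor, stood at 266, 327, 129.8 and 250.2 CPM in members and at 67.6, 62.9, 24.2 and 81.5 in the others (log2 fold change 2.20 ± 0.13, edgeR adjusted p = 3.43e-05). *Clec3b*, which encodes tetranectin, stood at 1147, 766, 702 and 951 against 299.6, 117, 139 and 363 (log2 fold change 2.19 ± 0.18, edgeR adjusted p = 0.000159). For neither gene did the ranges of the classes overlap. *Ly6c1*, a relative of *Ly6a*, had a log2 fold change of 2.07 ± 0.14, the nuclear receptor *Rorb* of 2.06 ± 0.11 and *Tnxb*, which encodes tenascin X, of 2.02 ± 0.16. *Pcsk6*, a proprotein convertase, had 1.98 ± 0.10 and *Procr*, the protein C receptor, 1.94 ± 0.13. *Tek*, the angiopoietin receptor best known from endothelium, had 1.87 ± 0.08, while the endothelial gene *Cdh5* was at 1.91, 1.81, 0.682 and 1.90 CPM in members. The rule allowed members at most 1 UMI of *Pecam1*, which bears on the level of *Cdh5*, and the source of *Tek* transcripts was not tested. *Lrrn4cl* and *Opcml*, which encode membrane proteins, had 1.86 ± 0.14 and 1.86 ± 0.12. All of these were higher in 4 of 4 libraries.

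**Figure D4:**
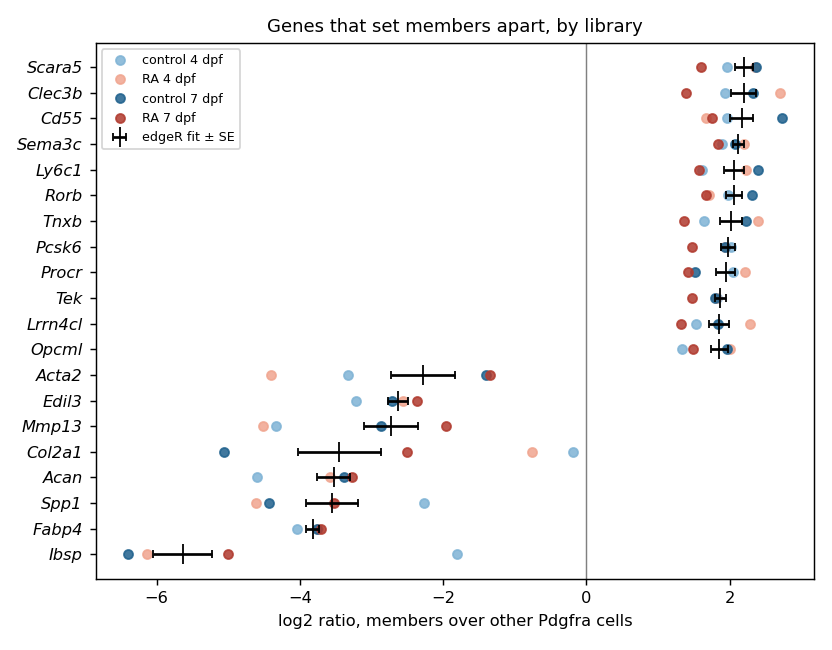
The 12 genes most raised and 8 most lowered in members against other *Pdgfra* cells by the naming rule, as log2 ratios in each library (coloured points) and in the edgeR fit (black, with SE). Raised genes lie above 0 and lowered genes below 0 in all 4 libraries, and *Col2a1* lies near 0 in the libraries of 4 dpf.

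Genes of skeletal and contractile cells were low in members. *Ibsp*, the bone sialoprotein, stood at 1.14, 0, 6.37 and 4.60 CPM in members and at 6.48, 69.5, 620 and 179 in other Pdgfra cells. *Spp1*, which encodes osteopontin, stood at 55.8, 20.3, 24.6 and 29.2 against 272, 521, 552 and 347 (log2 fold change −3.56 ± 0.36, edgeR adjusted p = 0.000397). *Col2a1*, the main collagen of cartilage, stood at 1.02, 0.362, 21.7 and 71.8 against 1.28, 1.31, 754 and 412. It was near absent at 4 dpf in either class, and its difference rests on 7 dpf. *Acan*, the cartilage proteoglycan, had a log2 fold change of −3.53 ± 0.23, *Mmp13*, the collagenase of hypertrophic cartilage, of −2.73 ± 0.38 and *Edil3*, an integrin ligand, of −2.63 ± 0.14. *Fabp4*, a fatty acid carrier of adipocytes and capillary endothelium, had −3.82 ± 0.09, and *Acta2* −2.28 ± 0.45 (edgeR adjusted p = 0.00826).

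Some of these calls depended on the choice of comparison cells. When the comparison cells also had to meet the limits on *Ly6a*, *Mki67* and *Pecam1*, 1331 genes were higher and 939 lower (edgeR). *Ibsp* (log2 fold change −2.14, adjusted p = 0.0847), *Fabp4* (−1.16, adjusted p = 0.0501) and *Col2a1* (−0.05, adjusted p = 0.984) no longer passed. Without control callus at 4 dpf, the adjusted p of *Acta2* was 0.0527. These comparison cells, the stricter ones, are given beside the lists below where they move a count by over 1.5 times.

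Genes known from Pi16 or Dpp4 fibroblasts other than the markers were tested as a list of 35. Of these, 32 were higher in members and none lower, with a median log2 fold change of 1.41 against −0.02 over all genes tested. *Wnt2*, a Wnt ligand, stood at 33.0, 9.79, 32.2 and 43.0 CPM in members and 9.37, 2.14, 4.24 and 7.08 in the others (log2 fold change 2.55 ± 0.18). The surface sialomucin *Cd34* had 1.67 ± 0.11, *Cd248*, which encodes endosialin, 1.48 ± 0.09, and *Ackr3*, a scavenging chemokine receptor, 1.61 ± 0.09. The hyaluronan synthase *Has1* had 1.42 ± 0.11 and *Pcolce2*, an enhancer of procollagen processing, 1.21 ± 0.20. *Akr1c18* had 3.18 ± 0.41 at low levels of 1.40, 3.26, 0.455 and 13.3 CPM. The genes that did not pass were *Smpd3* (−1.14 ± 0.54; edgeR adjusted p = 0.172), *Bmp7* (0.96 ± 0.45; edgeR adjusted p = 0.168) and *Col15a1* (0.21 ± 0.16; edgeR adjusted p = 0.389).

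Matrix genes separated the classes as well. Of 20 elastic fibre and microfibril genes, 13 were higher in members and 3 lower, and without control callus at 4 dpf 7 and 2. *Fbn1*, which encodes fibrillin 1, stood at 2371, 1478, 1838 and 2098 CPM in members and at 1125, 957, 843 and 1047 in the others (log2 fold change 1.07 ± 0.09). *Emilin2* had 1.59 ± 0.12 and *Eln*, which encodes elastin, 0.99 ± 0.29. *Eln* stood at 222.8, 860.2, 162.5 and 529.2 CPM in members and at 106.7, 200.4, 122.6 and 519.1 in the others. The classes were thus near equal for it in RA callus at 7 dpf, the library with the most members. The lower genes were *Ltbp2* (−1.26 ± 0.13), *Emilin1* (−0.89 ± 0.07) and the fetal fibrillin gene *Fbn2* (−0.66 ± 0.16), so the list was not of 1 direction. Of 17 matrix proteases and inhibitors, 9 were higher and 3 lower: the aggrecanase *Adamts5* had 1.60 ± 0.09, *Mmp27* 1.87 ± 0.19 and *Mmp3*, stromelysin 1, 1.12 ± 0.19, against −2.31 ± 0.22 for the gelatinase *Mmp9*. Of 12 hyaluronan genes, 4 were higher, among them *Ugdh*, which makes a sugar precursor (1.20 ± 0.07), and 1 was lower, *Hmmr*, which is also a gene of dividing cells (−4.01 ± 0.37), and with the stricter comparison cells none of 11 was lower.

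Complement genes were higher in members for 10 of 14 tested and lower for 1, with a median log2 fold change of 0.96. *C3*, the central component, stood at 1205, 1706, 464 and 1237 CPM in members and at 532, 592, 138 and 678 in the others (log2 fold change 1.44 ± 0.12). *C4b* had 1.59 ± 0.14, *C7* 1.44 ± 0.27 and *Serping1*, the C1 inhibitor, 1.11 ± 0.12. The gene lower in members was *Cd59a*, an inhibitor of the terminal complex (−1.58 ± 0.22). *Cd55* is in this list and among the markers.

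Interferon response genes were higher in members for 17 of 25 and lower for none, with a median of 0.67, and with the stricter comparison cells 14 were higher and 1 lower. *Ifi27l2a* stood at 1403, 750, 649.7 and 499 CPM against 529.6, 277, 188 and 199 (log2 fold change 1.60 ± 0.08). The antiviral genes *Rsad2* and *Ifit1* had 1.64 ± 0.30 and 1.34 ± 0.18, and the transcription factor *Irf7* 1.31 ± 0.20. Of 23 cytokine and chemokine genes, 11 were higher and none lower, with 2.44 ± 0.24 for the scavenging receptor *Ackr2*, 1.31 ± 0.12 for the neutrophil chemokine *Cxcl2*, 1.28 ± 0.21 for *Ccl8* and 0.88 ± 0.14 for *Il6*. Of 18 NF-kB target and feedback genes, 6 were higher by at most 0.53, and 1, *Vcam1*, was lower (−0.29 ± 0.07). None of the 18 was lower without control callus at 4 dpf or without RA callus at 7 dpf. With the stricter comparison cells 3 of the 18 were higher and 2 lower. Of 20 immediate early genes, 10 were higher and 1 lower, with *Klf4* at 1.07 ± 0.10 and *Klf2* at 0.92 ± 0.08. With the stricter cells 4 of these were higher.

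Growth factor genes went in both directions. Of 20 Wnt ligands and secreted antagonists tested, 6 were higher and 4 lower, with *Sfrp4* (1.64 ± 0.14) and *Wnt10b* (2.00 ± 0.23) at one end and *Frzb*, an antagonist known from cartilage (−3.19 ± 0.29), at the other. Of 25 BMP and TGF-beta genes, 10 were higher and 7 lower. The TGF-beta receptor *Tgfbr2* had 0.95 ± 0.09, the BMP antagonist *Grem1* −3.32 ± 0.33, the ligand *Bmp5* −1.46 ± 0.20 and the BMP target *Id1* −1.44 ± 0.11. Without control callus at 4 dpf 5 of the 25 were higher, and without control callus at 7 dpf also 5. Lower Wnt genes numbered 2 without control callus at 7 dpf and 7 without RA callus at 4 dpf.

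Notch pathway genes were lower in members for 12 of 20 and higher for 3. The receptor *Notch1* stood at 9.41, 12.3, 17.5 and 15.9 CPM in members and 32.9, 55.5, 51.6 and 39.0 in the others (log2 fold change −1.50 ± 0.13, edgeR adjusted p = 0.000199), and the pericyte receptor *Notch3* had −1.15 ± 0.13. The endothelial ligand *Dll4* had −3.33 ± 0.41 and the glycosyltransferase *Mfng* −2.08 ± 0.46. The genes higher were the receptor *Notch2* (0.37 ± 0.09), the ligand *Jag1* (0.44 ± 0.12) and *Rbpj*, the DNA-binding factor of the pathway (0.40 ± 0.08). With the stricter comparison cells 4 of 16 were lower and 3 higher, and without control callus at 4 dpf 4 of 20 were lower and none higher. Without control or RA callus at 7 dpf 6 and 7 were lower.

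Genes of neighbouring mesenchymal states differed by state. Of 14 genes of committed mesenchymal progenitors, 3 were higher and 6 lower: *Tnn*, which encodes tenascin W, had −2.11 ± 0.22, *Tnc* −1.91 ± 0.20 and *Col12a1* −1.20 ± 0.07, whereas *Col3a1* had 0.75 ± 0.05 and *Postn* did not pass (0.02 ± 0.11; edgeR adjusted p = 0.948). Of 14 cartilage genes, 12 were lower, and 1, *Sox5*, was higher (0.83 ± 0.10). Of 11 bone genes tested, 8 were lower and none higher, with *Runx2* at −1.29 ± 0.17. With the stricter comparison cells, 3 of 13 cartilage genes and 4 of 7 bone genes were lower. Of 9 tendon genes, 3 were lower, *Scx*, the tendon transcription factor (−1.64 ± 0.33), *Mkx* (−1.04 ± 0.30) and *Chodl* (−1.05 ± 0.31), and with the stricter cells 1. Without RA callus at 4 dpf 5 of these were lower, and without any 1 of the other 3 libraries 1 (without RA callus at 7 dpf 1 was also higher). DESeq2 called 7 cartilage genes lower.

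Of 12 contractile and pericyte genes, 8 were lower, among them *Tagln* (−2.00 ± 0.27), *Myl9* (−1.76 ± 0.20) and *Rgs5* (−2.90 ± 0.29), and 1, the potassium channel gene *Kcnj8*, was higher (1.58 ± 0.43). None of the 12 was higher with the stricter comparison cells, with DESeq2, or without any 1 of control callus at 4 dpf, control callus at 7 dpf and RA callus at 7 dpf. Of 13 preadipocyte genes tested, 4 were higher, with *Dlk1*, a Notch-like inhibitor of fat cell formation, at 1.60 ± 0.07. At 7 dpf *Dlk1* was detected in 39.1% of control and 27.2% of RA members, against 24.5% and 18.9% of other Pdgfra cells. At 4 dpf these shares were 2.63% and 8.25%, against 3.37% and 9.35%. There 1 cell held 59.1% of its UMIs in control members and 1 cell 46.6% in RA members. The 4 lower preadipocyte genes included *Fabp4*, *Cd36* (−2.27 ± 0.22) and *Pparg* (−0.82 ± 0.21), and with the stricter comparison cells 2 were higher and 2 lower. Of 12 genes of the Cxcl14 Abca8a fibroblasts, 3 were higher (*Abca8a*, *Gdf10* and *Lpl*, between 0.71 and 0.89) and *Vcam1* lower, and with the stricter cells none of the 12 was higher. None was higher either without control callus at 4 dpf or without control callus at 7 dpf, and 1 was without RA callus at 4 dpf or with DESeq2. None of the 12, *Vcam1* included, was lower without any 1 of control callus at 4 dpf, control callus at 7 dpf and RA callus at 7 dpf. Of 18 cell cycle genes, 17 were lower, in part as the limit on *Mki67* requires, and with the stricter cells 4 of 16. Without control callus at 4 dpf, 5 contractile genes were lower, and 1 preadipocyte gene was higher and 2 lower. Without RA callus at 7 dpf, 2 preadipocyte genes were lower and 5 of the Cxcl14 Abca8a genes higher.

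Other ways of choosing or scaling moved some of these counts as well. When members were chosen on cells thinned to 4000 UMIs, 1375 of 15474 genes were higher and 1374 lower (edgeR). In that fit 1 NF-kB gene was higher and 1 lower, 6 immediate early genes were higher and 3 lower, and 7 of 19 Notch genes were lower. Of the Cxcl14 Abca8a genes none was then higher and 3 were lower, of the preadipocyte genes 2 were higher and 2 lower, and 7 tendon genes were lower. Of 18 cell cycle genes 7 were then lower, and of 5 muscle markers 1. With library size alone, 1 Notch gene was higher and 14 lower, 5 BMP and TGF-beta genes were higher and 10 lower, and none of the Cxcl14 Abca8a genes was higher.

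Markers of endothelial and muscle cells were lower in members than in other Pdgfra cells, those of macrophages and lymphocytes summed to like levels in both classes, and red cell genes were higher in members of 3 libraries. The 12 macrophage and monocyte markers, led by *Lyz2*, summed to 97.0, 54.0, 94.7 and 78.9 CPM in members and 90.0, 75.8, 126 and 66.9 in other Pdgfra cells, and 1 of 12, *Itgam*, was lower (none with the stricter comparison cells). Neutrophil markers, led by *S100a8*, summed to 7.12, 64.9, 17.3 and 7.10, and 2 of 5, *S100a8* and *S100a9*, were lower. RA callus at 4 dpf was highest for them in both classes, with 102 in other Pdgfra cells. Endothelial markers, led by *Ptprb*, summed to 20.5, 22.8, 10.3 and 17.6 against 114, 126, 76.4 and 131. All 8 were lower, in part as the limit on *Pecam1* requires. With the stricter comparison cells none of the 6 tested was, and their median log2 fold change was −0.07 in place of −3.03. Lymphocyte markers summed to 4.20, 6.16, 9.32 and 4.11 CPM against 4.12, 6.08, 6.72 and 5.11 (1 of 2 tested lower), Schwann cell markers in members to at most 24.3 (none of 5 called, and 1 of 2 higher with the stricter cells) and muscle cell markers to at most 10.5 (6 of 6 lower). With the stricter cells 1 of 3 muscle markers was lower and none of 3 neutrophil markers. Neutrophil markers lower numbered 1 of 5 without control callus at 4 dpf, 1 of 3 without RA callus at 4 dpf and none without control or RA callus at 7 dpf. Lymphocyte markers had no lower call with DESeq2, or without any 1 of control callus at 4 dpf, control callus at 7 dpf and RA callus at 7 dpf. No marker of these lists was at 0 in members of all 4 libraries. Of the 5 red cell genes 4 were higher in members, and *Hbb-bs* stood at 571, 2.17, 392 and 292 CPM against 315, 3.51, 221 and 203 (log2 fold change 0.78 ± 0.13). With called doublets left out none of the 5 was called, with a median log2 fold change of 0.15, nor was any with the looser cell filter, on thinned cells or with at least 4 UMIs of *Pi16* and *Dpp4*, and DESeq2 called 2 higher. Without control callus at 4 dpf, 2 red cell genes were higher and 2 muscle markers lower, and without control or RA callus at 7 dpf 3 and 3 muscle markers were lower. The part of these markers in the results above was not tested. Some of them stood at unlike levels in RA and control members. All 5 Schwann cell markers measured at 7 dpf had ratios above 0, 4 past 2-fold, with a median log2 ratio of 1.30 in members and 0.24 in other Pdgfra cells. Led by *Mbp*, they summed to 6.14 CPM in control and 24.3 in RA members. Both neutrophil markers measured at 4 dpf, *S100a8* and *S100a9*, had intervals above an equal level, with a median of 3.10. Their part in the comparisons of RA and control below was not tested.

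Between RA and control members at 7 dpf, the 10 largest ratios above 0 among genes of at least 100 CPM included those of *Saa3*, *Hp*, *C3*, *C4b*, *Eln* and *Mmp3*. Of 15403 genes that reached 20 UMIs in the pair of libraries, 152 (0.987%) were at least 2-fold higher in RA members and 140 (0.909%) at least 2-fold lower. These are ratios of 2 libraries and have no test. Counting intervals left out an equal level for many genes: of 15308 genes of the edgeR test that were measured at 7 dpf, 2158 had an interval above it and 3297 below. At 4 dpf these were 1834 and 1833 of 12191, and the counts of intervals given for lists below are to be set beside these. *Saa3*, an acute phase protein, stood at 245 CPM in RA and 10.1 in control members at 7 dpf, and at 849.6 and 283 at 4 dpf. On the log2 scale RA exceeded control by 4.47 (4.29 to 4.91) and 1.58. Few cells carried it: it was detected in 13.1% of RA and 4.25% of control members at 7 dpf. At 4 dpf, 1 cell held 64.9% of its UMIs in RA members and 1 cell 47.5% in control members. *Hp*, which encodes haptoglobin, had log2 ratios of 1.77 at 7 dpf and 0.71 at 4 dpf, where 1 cell held 48.6% of the RA UMIs. Without the cell with the most *Hp* UMIs in each library, it stood at 126 CPM in RA and 121 in control members at 4 dpf.

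Complement transcripts were spread over more members. *C3* stood at 1237 CPM in RA and 464 in control members at 7 dpf, and at 1706 and 1205 at 4 dpf. The log2 ratios were 1.41 (1.37 to 1.46) and 0.50 (0.45 to 0.55), and *C3* was detected in 76.5% of RA and 58.4% of control members at 7 dpf. *C4b* had log2 ratios of 1.47 and 0.44. Of 14 complement genes measured at 7 dpf, 11 had an interval above an equal level and 1 below, and 4 were past 2-fold. Their median log2 ratio was 0.72 against −0.04 over all genes. In other Pdgfra cells the median of the list was 1.20, and *C3* had 2.28.

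Several genes of matrix and of secreted regulators had ratios above 0 in RA members at both times. *Eln* stood at 529 CPM in RA and 162 in control members at 7 dpf, and at 860.2 and 223 at 4 dpf (log2 ratios 1.70 and 1.94). *Mmp3* had log2 ratios of 1.60 at 7 dpf and 1.40 at 4 dpf. *Gdf10*, a ligand of the BMP family, had 2.10 and 1.65, and *Sfrp2*, a secreted Wnt antagonist, 1.23 and 1.30. The chemokine *Ccl8* had 1.58 and 0.65, and *Opcml* 1.82 and 1.01. In other Pdgfra cells at 7 dpf the same genes had ratios between 1.07 and 2.61, so all 6 were above 0 there as well. The matrix lists did not go 1 way. Of 20 elastic fibre and microfibril genes, 11 had intervals above an equal level and 7 below at 7 dpf, with a median log2 ratio of 0.09, and 10 and 7 at 4 dpf. Of 14 genes of committed mesenchymal progenitors, many of which encode matrix proteins, 2 had intervals above and 11 below at 7 dpf.

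Of the lists, the genes of Cxcl14 Abca8a fibroblasts, which include *Gdf10*, had a median log2 ratio of 1.02 at 4 dpf, with 12 of 12 intervals above an equal level, and of 0.44 at 7 dpf, with 9 of 12. In other Pdgfra cells their median at 7 dpf was 1.14. On thinned cells the median at 4 dpf was 0.36, with 8 of 12 ratios above 0, and the median at 7 dpf was lower as well (0.19). With members chosen by *Sema3c*, *Efemp1* and *Cd55* the medians were 0.43 at 4 dpf and 0.80 at 7 dpf, so the later one was the larger. With at least 4 UMIs of *Pi16* and *Dpp4* they were 1.01 and 0.22. Matrix proteases and inhibitors were above an equal level for 13 of 17 at 7 dpf and below it for 2, with a median of 0.34 in members and 0.44 in other Pdgfra cells. At 4 dpf they were above it for 8 of 16 and below it for 5. Immediate early genes were above it for 19 of 20 at 7 dpf, with a median of 0.36 in members and 0.49 in other Pdgfra cells. Such genes also respond to tissue digestion, whose part was not tested.

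Genes lower in RA members at 7 dpf included *Igf2*, *Fabp5* and *Tnc*. *Igf2*, an imprinted growth factor, stood at 23.8 CPM in RA and 183 in control members at 7 dpf (log2 ratio −2.89, −3.06 to −2.82) and was detected in 14.2% and 29.5% of them. *Mest* and *Dlk1*, imprinted genes as well, had log2 ratios of −1.62 and −1.30. *Tnc* stood at 71.6 against 246 (−1.77), *Acta2* at 49.5 against 152 (−1.60) and *Fabp5*, a fatty acid carrier, at 24.3 against 153 (−2.60). The potassium channel gene *Kcnma1* had −1.40, and *C1qtnf3* and *Ecrg4*, which encode secreted proteins, −1.38 and −1.21. In other Pdgfra cells these 9 genes were lower in RA too, with ratios between −1.95 and −0.42.

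Of 9 tendon genes, 7 had intervals below an equal level in RA members at 7 dpf, with 5 past 2-fold and a median log2 ratio of −1.16. In other Pdgfra cells the median was 0.34, and the difference between the classes was not tested. *Fmod*, which encodes the proteoglycan fibromodulin, stood at 58.3 CPM in RA and 182 in control members at 7 dpf (−1.62), and *Scx* at 4.11 and 23.0 (−2.23). At 4 dpf the median of the list was 0.05. When members were chosen on thinned cells, the median at 7 dpf was −0.25, with 3 of 8 ratios above 0, and *Fmod* had a log2 ratio of 1.22.

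**Figure D5:**
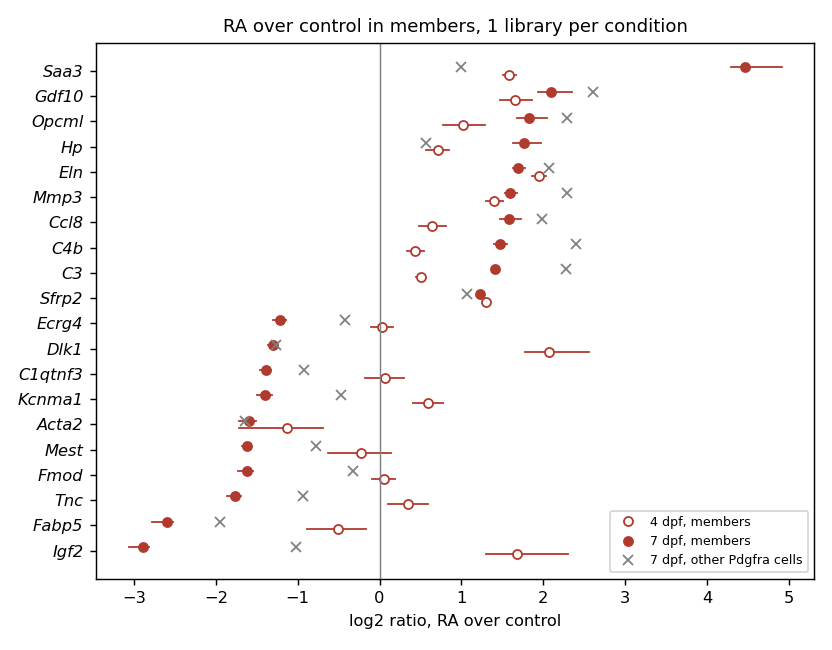
Log2 ratio of RA to control in members for the 10 genes most raised and 10 most lowered at 7 dpf, at 7 dpf (filled) and 4 dpf (open) with 95% counting intervals, and in other *Pdgfra* cells at 7 dpf (crosses). The raised genes lie above 0 at both times with all cells counted (*Hp* at 4 dpf rests on 1 RA cell), and *Igf2*, *Dlk1*, *Kcnma1* and *Tnc* lie below 0 at 7 dpf and have intervals above it at 4 dpf, where 1 RA cell held 68.8% of the UMIs of *Igf2* and 43.6% of those of *Tnc*, which stood at −0.27 without the top cell of each library.

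At 4 dpf the comparison rested on 97 RA members. Of 12196 genes measured, 294 (2.41%) were at least 2-fold higher and 271 (2.22%) at least 2-fold lower in RA members. The markers that the rule left unused had log2 ratios of RA to control below 0 at 4 dpf and above 0 at 7 dpf. These were −1.33 and 0.58 for *Sema3c*, −0.20 and 0.85 for *Efemp1*, and −1.22 and 0.34 for *Cd55*. Their values in other Pdgfra cells were −1.64 and 0.82, 0.30 and 1.36, and −0.93 and 1.31, so the ratios at 7 dpf were larger there than in members, and *Efemp1* was above 0 there at 4 dpf. Of the other genes known from Pi16 or Dpp4 fibroblasts, 27 of 34 had intervals below an equal level at 4 dpf and 27 of 35 above it at 7 dpf, where their median log2 ratio was 0.39 in members and 0.66 in other Pdgfra cells. On thinned cells their median log2 ratio at 4 dpf was −0.33 in place of −0.66, with 12 of 31 above 0. The median number of *Pi16* and *Dpp4* UMIs in a member moved with these values (8, 4, 4 and 7). Among cells with 9 or more, *Sema3c* stood at 509, 242, 436 and 609 CPM and *Cd55* at 361, 136, 304 and 364, in the same order. *Efemp1* did not follow at 4 dpf there, with 429 in control and 452 in RA callus.

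Most interferon response genes had ratios below 0 in RA members at both times. At 4 dpf 19 of 25 had intervals below an equal level, with a median log2 ratio of −0.65, and at 7 dpf also 19, with −0.40. In other Pdgfra cells the median at 7 dpf was 0.15. *Ifit3* stood at 6.90 CPM in RA and 32.2 in control members at 7 dpf and at 19.9 and 43.7 at 4 dpf. The interferon-induced chemokine *Cxcl10* stood at 25.7 and 84.1 at 7 dpf. Among members with at least 4 UMIs of *Pi16* and *Dpp4*, the medians of the list were −0.54 and −0.22. They were −0.38 and −0.24 on thinned cells, with 5 and 9 of 25 ratios above 0. By the 3 unused markers they were −0.37 and −0.32. Cell cycle genes were sparse, and at 4 dpf 3 of 13 had intervals below an equal level, against 13 of 18 at 7 dpf. They had medians of −0.52 and −0.64 in members, and −0.64 in other Pdgfra cells at 7 dpf. With a pseudocount of 10 CPM the medians in members came to −0.20 and −0.21, and on thinned cells to −2.10 and −1.11. At 4 dpf the median was −0.09 by the 3 unused markers and −0.24 with no limit on *Ly6a*.

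From 4 to 7 dpf, several genes differed in the same direction in control and RA members. *Mest* stood at 32.4 CPM at 4 dpf and 561 at 7 dpf in control, and at 27.6 and 182 in RA callus (log2 ratios of 7 to 4 dpf 4.07 and 2.68). *Dlk1* had 5.23 and 1.85, and was detected in 2.63% and 39.1% of control and 8.25% and 27.2% of RA members. At 4 dpf 1 cell held 59.1% of its UMIs in control and 1 cell 46.6% in RA members, and without these it stood at 4.85 and 28.7 CPM in place of 11.8 and 52.9. *Ptn*, a heparin-binding growth factor, had 1.48 and 1.79, and the imprinted transcription factor gene *Plagl1* 1.52 and 1.31. In the other direction, *Prg4*, the lubricating proteoglycan, stood at 707 at 4 dpf and 142 at 7 dpf in control, and at 1224 and 86.2 in RA callus (−2.31 and −3.81). *Clu*, which encodes clusterin, had −1.78 and −1.88, the protease inhibitor *Serpina3n* −1.76 and −1.77, and *Myoc* −3.14 and −1.74. The mice at the 2 times were different ones, and time cannot be told apart from the library.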

How the data were processed

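Cells of callus were sequenced with 10x Genomics 3′ chemistry (v3.1). The authors deposited, per library, a matrix of raw UMI counts for 32285 genes, which per the labels came from Cell Ranger 7.0.1 with mm10. Cells with 4000 to 50000 UMIs, 2000 to 7000 genes and at most 8% mitochondrial UMIs were kept, as the rule for members requires. Members and gene lists were chosen with earlier results of these data known. Doublets were called with Scrublet (scanpy 1.11.5) and left in. Counts were summed per library and class and tested with edgeR 4.0.16 (R 4.3.3; filterByExpr, TMM, library term), with DESeq2 1.42.0 as an alternative. RA and control members, 1 library each, were compared as log2 ratios of CPM with a pseudocount of 1, for genes with at least 20 UMIs. Ratio intervals are exact conditional ones, without the pseudocount. Genes named were the 5 markers, the 12 most raised and 8 most lowered at 50 CPM or more, the 10 largest rises and falls with RA at 100 or more, the 5 over time, and the largest changes of each list; others were named for their role after their values were seen. Scripts were tested on simulated data. Alternatives were the cell filter, doublets, thinning to 4000 UMIs, the limits of the rule, the comparison cells, scaling, filters, pseudocount and leaving out each library.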

Additional observations from a re-analysis of the deposited data

Results flagged for a closer look

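The share of members among Pdgfra cells stood out because the RA libraries moved in opposite directions at the 2 times: 0.458 times the control share at 4 dpf and 2.77 times at 7 dpf. The difference between the times was not tested, since each share comes from 1 pool.

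Within members, 4 of the 20 genes named for RA against control at 7 dpf had intervals on opposite sides of an equal level at the 2 times, and none of these differences was tested. *Igf2* had log2 ratios of 1.68 at 4 dpf and −2.89 at 7 dpf, *Dlk1* of 2.07 and −1.30, *Kcnma1* of 0.59 and −1.40, and *Tnc* of 0.35 and −1.77. At 4 dpf 1 RA cell held 68.8% of the *Igf2* UMIs, 1 held 46.6% of those of *Dlk1* and 1 held 43.6% of those of *Tnc*. Without the cell with the most UMIs in each library, the ratios at 4 dpf were 0.36 for *Igf2*, 2.34 for *Dlk1*, 0.49 for *Kcnma1* and −0.27 for *Tnc*.

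Outside the cell filter, 135 further barcodes met the limits of the rule on the 7 genes: 36 and 9 at 4 dpf and 22 and 68 at 7 dpf, control first. They were left out of all results in the text except those given for the looser cell filter.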

How the results depend on the processing

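The RA share of members stayed below control at 4 dpf and above it at 7 dpf under all alternatives run. The shares are given as control and RA at 4 dpf, then control and RA at 7 dpf. They were 21.6%, 9.61%, 11.7% and 34.6% with the looser cell filter, 16.0%, 5.36%, 4.83% and 16.7% on thinned cells, and 22.9%, 8.61%, 7.48% and 26.4% with at least 4 UMIs of *Pi16* and *Dpp4*. By *Sema3c*, *Efemp1* and *Cd55* they were 44.4%, 36.5%, 23.7% and 51.9%, and of all kept cells 4.86%, 2.36%, 4.60% and 16.5%. Of Pdgfra cells that met the limits on *Ly6a*, *Mki67* and *Pecam1*, a denominator chosen after seeing the data, they were 48.2%, 25.1%, 27.4% and 51.0%. The ratio of shares at 4 dpf was 0.335 on thinned cells and 0.822 by the 3 markers. At 7 dpf it was 3.45 on thinned cells, 3.52 with at least 4 UMIs, 2.19 by the 3 markers, 3.59 of all kept cells and 1.86 with the denominator held to those limits, the smallest.

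Genes higher and lower in members numbered 1290 and 2904 with library size scaling, which lowers all fold changes alike, and 939 were lower with the stricter comparison cells. Of the genes lower in the main test, 43 then had a log2 fold change above 0. The median of the endothelial markers was −0.07 in place of −3.03, and that of the cartilage genes −0.49 in place of −2.74. The reason for the smaller count was not tested. Leaving out 1 library gave 983 to 2119 higher and 953 to 1883 lower genes. DESeq2 gave 1802 and 1536, of which 1750 and 1477 were among the calls of edgeR. The 21 genes named for this comparison kept their direction throughout. Of 315 values, 5 missed the threshold, and *Col2a1* did so also with DESeq2 (adjusted p = 0.0501). The values of *Sema3c*, *Efemp1* and *Cd55* with members chosen by these 3 genes are counted here, although that choice fixed their direction.

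Genes past 2-fold, higher and lower in RA members, numbered 328 and 320 at 7 dpf on thinned cells, and 639 were lower at 4 dpf; these have fewer members and UMIs. With a pseudocount of 10 they numbered 28 and 36 at 7 dpf and 61 and 33 at 4 dpf, and with at least 50 UMIs 174 and 175 at 4 dpf. Of the 20 genes named, 1 changed direction: *Fmod*, to 1.22, on thinned cells (the cause was not tested). The sizes were less stable. Of 200 values of these genes under the alternatives, 98 stayed within the counting interval of the main ratio. Another 101 kept their direction but lay outside it, among them those of 19 genes on thinned cells. Without the cell with the most UMIs of a gene, all 20 stayed past 2-fold at 7 dpf, while *Tnc* at 4 dpf went to −0.27.

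Each condition was 1 pool, so variation between mice is unknown, and RA callus at 4 dpf had 97 members. No paired analysis was possible because each condition and time has 1 library, numbered only in accession order; the comparison of members with other cells has the library as a term. Near-identical genes such as *Hba-a1* and *Hba-a2* share reads.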
